A study of Mus musculus with 109 samples.

Results

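Toll-like receptors are the innate immune sensors of microbial and damage-derived molecules, and Unc93b1 is the carrier protein that those working inside the cell depend on. The members were set by name: Tlr1, Tlr2, Tlr3, Tlr4, Tlr6, Tlr7, Tlr8, Tlr9, Tlr13 and Unc93b1, which are 10 of the 37315 genes counted. They were followed in 109 whole retinas of 64 mice aged 2 to 4 months after intravitreal injection of PBS, the vehicle, or of the inflammatory cytokines TNF, IL1A or both together (IL1A+TNF). In wild-type (WT) C57BL/6J mice of the first batch, as the labels number it, retinas were taken at day 2 (31 PBS, 8 TNF, 9 IL1A and 10 IL1A+TNF), day 14 (7 PBS, with both eyes of 1 mouse among them, and 6 TNF) and day 35 (6 PBS and 9 TNF). The second batch held WT retinas (5 PBS and 6 IL1A+TNF) and retinas of Sarm1KO mice (6 PBS and 6 IL1A+TNF), all at day 2. Sarm1KO mice lack functional Sarm1 in every cell from birth, so a difference between the genotypes cannot be assigned to a retinal cell type. In 45 mice both eyes were used, and a PBS retina was usually the fellow eye of a cytokine-injected one.

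The receptors divide by where they sense. Tlr2 works at the cell surface with Tlr1 or Tlr6 as its partner and binds bacterial lipoproteins, while Tlr4 with its co-receptors Cd14 and Ly96 binds lipopolysaccharide. Tlr3, Tlr7, Tlr8, Tlr9 and Tlr13 work inside endosomes. There Tlr3 binds double-stranded RNA, Tlr7 binds single-stranded RNA, Tlr13 binds bacterial ribosomal RNA and Tlr9 binds unmethylated CpG DNA. What Tlr8 binds in mice is not taken up here. Unc93b1 binds the nucleic acid-sensing receptors in the endoplasmic reticulum and carries them to endosomes, where proteases such as cathepsins cut their ectodomains. Most receptors signal through the adaptor Myd88, Tlr3 signals through Ticam1, and Tlr4 uses both. In the retina these receptors are best known from microglia and from blood-derived myeloid cells, and Tlr3 is also known from neurons, glia and pigment epithelium.

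On mm10 (GENCODE M21), Tlr1 (ENSMUSG00000044827, chr5:64924679-64933563) and Tlr6 (ENSMUSG00000051498, chr5:64952031-64960097) are neighbouring genes on the minus strand that arose by duplication, so reads from their most alike stretches are uncertain between them. Tlr7 (ENSMUSG00000044583, chrX:167304929-167330558) and Tlr8 (ENSMUSG00000040522, chrX:167242696-167264329) are neighbours on the X chromosome, where Tlr13 (ENSMUSG00000033777, chrX:106143204-106160493) also lies. Tlr2 (ENSMUSG00000027995) is at chr3:83836272-83841767, Tlr4 (ENSMUSG00000039005) at chr4:66827584-66930284, Tlr9 (ENSMUSG00000045322) at chr9:106222598-106226883 and Unc93b1 (ENSMUSG00000036908) at chr19:3935186-3949340. Tlr3 (ENSMUSG00000031639, chr8:45395665-45411080) shares 381 exonic bases with the antisense gene Gm45542, and without a stated strand setting reads there cannot be told apart.

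The promoters of 4 members are shown as examples. All 10 members rose after IL1A+TNF, and the upstream letters of these 4 differed. Each is the 250 bases before an annotated start (RefSeq, GRCm38.p6), written along the gene's own strand, and capitals mark matches to 4 searched motifs.
Tlr1, chr5:64933559-64933808, minus strand: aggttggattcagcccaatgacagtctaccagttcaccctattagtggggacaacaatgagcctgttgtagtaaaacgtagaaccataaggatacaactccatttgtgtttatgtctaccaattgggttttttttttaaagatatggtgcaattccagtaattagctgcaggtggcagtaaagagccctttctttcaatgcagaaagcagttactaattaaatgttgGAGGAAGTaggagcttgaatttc
Tlr6, chr5:64959167-64959416, minus strand: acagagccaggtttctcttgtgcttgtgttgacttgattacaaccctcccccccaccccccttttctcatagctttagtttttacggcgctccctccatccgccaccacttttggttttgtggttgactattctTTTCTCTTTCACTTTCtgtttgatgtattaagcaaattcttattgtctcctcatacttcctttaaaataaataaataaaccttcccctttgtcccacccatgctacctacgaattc
Tlr8, chrX:167264330-167264579, minus strand: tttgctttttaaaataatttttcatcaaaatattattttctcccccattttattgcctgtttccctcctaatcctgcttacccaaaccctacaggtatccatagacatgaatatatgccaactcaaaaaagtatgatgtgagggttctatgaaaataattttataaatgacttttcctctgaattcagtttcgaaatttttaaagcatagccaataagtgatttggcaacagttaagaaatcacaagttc
Tlr9, chr9:106222348-106222597, plus strand: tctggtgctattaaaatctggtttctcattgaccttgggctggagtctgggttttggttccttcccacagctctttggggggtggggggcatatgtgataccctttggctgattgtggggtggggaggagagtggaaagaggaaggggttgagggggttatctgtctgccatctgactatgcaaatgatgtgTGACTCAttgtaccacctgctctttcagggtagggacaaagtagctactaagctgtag

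The motifs were searched on both strands in a window of 300 bases, which adds the 50 bases after the start. They were the PU.1 site GAGGAAGT, the interferon response element (GAAA, 2 free bases, GAAA), the NF-kB site (GGG, 2 free bases, TTTCC) and the AP-1 site TGANTCA. Tlr1 held a PU.1 match that began at position -23 from its start. Tlr6 held 2 overlapping interferon response matches on the opposite strand, at -116 and -110, and Tlr9 held an AP-1 match at -58 and a PU.1 match at 10, after its start. Tlr3 held an NF-kB match at -211. No match was found for Tlr8, nor for Tlr2 and Tlr13. Tlr1 and Tlr6 each have another annotated promoter, at chr5:64932700-64932949 and chr5:64960049-64960298, and neither held a match. For Tlr6 this other promoter is the one at the 5' end of the gene, while the window with matches lies inside the gene's span. Among 32851 promoter windows of the same length, 3.20% held the PU.1 letters, 3.44% the interferon response letters, 1.63% the NF-kB letters and 7.81% the AP-1 letters, so these matches are descriptions only. The table held entries for 7 members.

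Total counts ran from 30014757 to 45779899 per retina in the first batch and from 42875980 to 79064488 in the second. Levels are in CPM, the count of a gene scaled to the library's size after TMM normalisation. In the Sarm1KO retinas the Sarm1 level lay between 26.1 and 52.9 CPM, below the 76.3 to 136 CPM of all WT retinas, so part of the transcript was still counted. Some libraries stood apart. The TNF retina of mouse 60584 correlated at 0.978 with the median of the rest of its group over genes that passed the filter. In the Sarm1KO group 2 IL1A+TNF retinas, of mice 61924 and 61926, had 0.963 and 0.956, and 2 PBS retinas, of mice 61561 and 61564, had neutrophil marker sums of 63.9 and 54.9 CPM against 2.00 to 9.24 CPM in the other 4. For several members, results that rest on them are given with and without them.

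In WT PBS retinas at day 2 the carrier stood above its receptors. Per kilobase of exon, Unc93b1 averaged 2.19 ± 0.81 CPM per kb (SD, n = 31). Tlr3 followed at 1.72 ± 0.28, Tlr2 at 1.03 ± 0.45, Tlr13 at 0.694 ± 0.385 and Tlr4 at 0.527 ± 0.212. Lower still were Tlr7 at 0.388 ± 0.141, Tlr9 at 0.277 ± 0.123, Tlr1 at 0.244 ± 0.157, Tlr8 at 0.134 ± 0.093 and Tlr6 at 0.116 ± 0.075. Within single retinas Unc93b1 was above Tlr3 in 24 of 31, Tlr3 above Tlr2 in 29, Tlr7 above Tlr9 in 29 and Tlr1 above Tlr8 in 28. The neighbours Tlr8 and Tlr6 changed places in nearly as many retinas as not (17 of 31 with Tlr8 higher). Tlr9 was above Tlr1 in 20 of 31 and Tlr13 above Tlr4 in 22.

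IL1A+TNF against PBS at day 2 asked what the combined cytokines did to the retina soon after injection. All 10 members passed the low-count filter and all 10 were higher after IL1A+TNF, at a false discovery rate (FDR) under 0.05 over all genes tested. Of those genes 50.4% were called and 24.9% were called higher. The median log2 difference of the members was 2.06, against -0.02 over all genes tested. The endosomal receptors Tlr8 and Tlr13 had the largest differences and Tlr3, also endosomal, the smallest. The groups did not overlap for 5 members, Tlr1, Tlr7, Tlr8, Tlr13 and Unc93b1, and 2.25% of all genes tested lay wholly higher after IL1A+TNF.

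Among the surface receptors, Tlr1 lay between 0.166 and 1.93 CPM (median 0.684) in PBS retinas and between 2.64 and 5.38 CPM (median 3.39) after IL1A+TNF. Every treated retina was above every PBS retina, and the log2 difference was 2.33 (SE 0.24, FDR = 2.49e-12). Tlr6, the other partner of Tlr2, was much lower in both groups, at 0.108 to 1.39 CPM (median 0.346) and 0.759 to 3.38 CPM (median 1.92). Here 8 of 10 treated retinas were above all PBS retinas, with a log2 difference of 2.24 (SE 0.25, FDR = 5.08e-11). Tlr2 itself went from 1.35 to 7.70 CPM (median 2.89) in PBS retinas and from 5.27 to 11.4 CPM (median 6.49) in treated ones. Its groups overlapped more, with 2 of 10 treated retinas above the PBS range, and its log2 difference was 1.21 (SE 0.16, FDR = 6.96e-09). Tlr4 ranged from 0.780 to 6.11 CPM (median 2.67) and from 4.55 to 17.2 CPM (median 8.18). All but 1 of the treated retinas exceeded the PBS range, and the log2 difference was 1.59 (SE 0.17, FDR = 1.33e-11).

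Of the endosomal receptors, Tlr8 was nearly silent in PBS retinas, at 0.100 to 1.35 CPM (median 0.402), and reached 2.37 to 6.14 CPM (median 3.68) after IL1A+TNF. The groups did not overlap, and its log2 difference of 3.16 (SE 0.35, FDR = 4.19e-11) was the largest of the members. Tlr13, a receptor of mice that humans lack, stood at 1.05 to 7.97 CPM (median 2.72) and 8.30 to 32.4 CPM (median 15.9). Again no treated retina fell within the PBS range, and the log2 difference was 2.57 (SE 0.20, FDR = 3.02e-16). Tlr7 moved from 0.581 to 3.16 CPM (median 1.501) in PBS retinas to 3.26 to 9.19 CPM (median 6.01), a gap of narrow width, with a log2 difference of 1.99 (SE 0.16, FDR = 7.90e-16). For Tlr9 the ranges were 0.359 to 2.06 CPM (median 0.826) and 1.65 to 3.15 CPM (median 2.57). There 7 of 10 treated retinas were above all PBS retinas, and the log2 difference was 1.39 (SE 0.17, FDR = 3.77e-10). Tlr3 began highest and changed least. It ran from 5.94 to 12.1 CPM (median 9.10) in PBS retinas and from 9.20 to 17.4 CPM (median 15.1) after IL1A+TNF, a log2 difference of 0.65 (SE 0.08, FDR = 1.49e-10), and 8 of 10 treated retinas were above the PBS range.

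Unc93b1, the carrier, lay between 3.47 and 12.7 CPM (median 5.99) in PBS retinas and between 21.2 and 35.6 CPM (median 27.2) in treated ones. No retina of either group fell within the range of the other, and the log2 difference was 2.13 (SE 0.16, FDR = 1.13e-16). In 8 mice the fellow eye had received PBS, and the treated eye was higher in all 8 for Tlr1, Tlr4, Tlr7, Tlr8, Tlr9, Tlr13 and Unc93b1. For Tlr2, Tlr3 and Tlr6 it was higher in 7, the exception each time being mouse 60780.

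**Figure D1:**
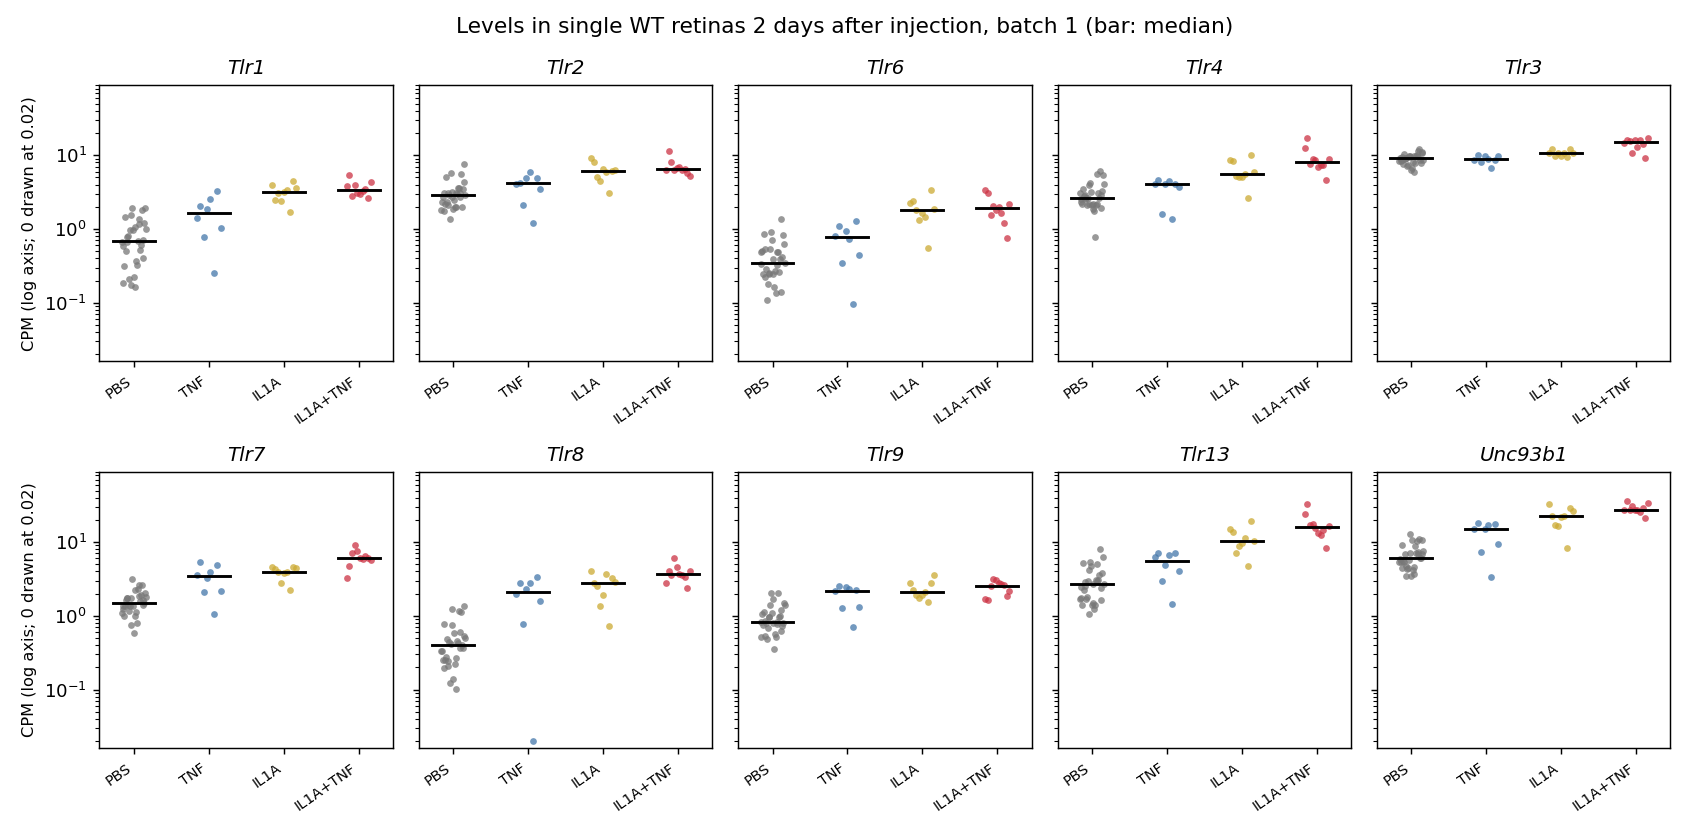
Level of each member in WT retinas of the first batch at day 2, in TMM-scaled CPM on a log axis, by treatment, with 1 point per retina, a bar at the group median and a level of 0 drawn at the foot of the axis. The IL1A+TNF retinas of Tlr1, Tlr7, Tlr8, Tlr13 and Unc93b1 lie wholly above the 31 PBS retinas, while those of Tlr2 and Tlr3 overlap them.

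The rest of the pathway was read from 45 listed genes, of which 43 were tested. After IL1A+TNF 29 of them rose and 3 fell. The flagellin receptor Tlr5 rose (log2 difference 1.43, FDR = 7.14e-09), while Tlr11 and Tlr12 did not pass the filter. Among co-receptors and ligand carriers 5 of 6 rose, among chaperones and endosomal proteases 6 of 9, among kinases and ligases 7 of 13 with 1 lower, and among transcription factors 3 of 4. Of the adaptors 4 of 5 rose and Sarm1 fell. The 3 listed genes with the smallest FDR were Cd300lf, an inhibitory receptor of myeloid cells (2.68, FDR = 1.01e-16), Tnfaip3, the ubiquitin editor that damps NF-kB signalling (-1.20, FDR = 5.00e-16), and the kinase Irak4, which Myd88 recruits (1.06, FDR = 1.01e-15). Tnfaip3 was the called inhibitor that fell, while 3 others rose.

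As groups, IL1A+TNF retinas also had higher myeloid marker sums than PBS retinas. The summed level of 8 microglial markers was 75.8 to 141 CPM in PBS retinas and 196 to 331 CPM after IL1A+TNF, with 6 of the 8 higher and 1 lower. Of the microglial genes Tmem119 fell (-0.35, FDR = 0.0130) and P2ry12 had a log2 difference of 0.00 (FDR = 0.986). The sum of 6 neutrophil markers was 0.690 to 81.5 CPM and 48.1 to 455 CPM, and all 4 that were tested rose. The sum of 5 monocyte markers was 0.829 to 19.98 CPM and 33.4 to 100.3 CPM, with 4 of 5 higher. None of these 3 lists had a marker at 0 in either group throughout. Within the 10 IL1A+TNF retinas the members did not all follow these sums. Spearman correlations with the neutrophil sum ran from -0.87 (Tlr7) to 0.56 (Tlr1), and with the microglial sum from 0.07 (Tlr9) to 0.71 (Unc93b1). Rod markers summed to 31510 to 49380 CPM and 19650 to 36680 CPM. The part of these shifts in the result was not tested, and in whole retinas more cells of a type cannot be told from more RNA per cell. The other marker lists stood as follows over the 2 groups: T cells 0 to 0.392 and 0.0667 to 1.11 CPM, B cells 0.495 to 1.53 and 0.806 to 1.71 CPM, plasmacytoid dendritic cells 183 to 226 and 193 to 255 CPM, Mueller glia 1361 to 2839 and 872 to 1780 CPM, and ganglion cells 316 to 468 and 270.0 to 367 CPM. Lens markers ran from 0.0473 to 497 and from 0.271 to 287 CPM, and pigment epithelium markers from 163 to 343 and from 82.2 to 180 CPM. Siglech, which microglia also express, fell among the dendritic cell markers (-2.72, FDR = 1.10e-14). The sum of that list did not fall with it (medians 205 and 233 CPM), so the sum cannot be read as the amount of these cells.

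IL1A alone against PBS also gave all 10 members higher, where 21.4% of all genes were called, 11.9% higher and 9.44% lower. Tlr8 was at 0.726 to 4.09 CPM (median 2.78) after IL1A, with 7 of 9 retinas above the PBS range and a log2 difference of 2.54 (SE 0.39, FDR = 7.06e-07). Tlr6 (2.21, FDR = 1.86e-09), Tlr1 (2.19, FDR = 6.40e-10) and Tlr13 (2.01, FDR = 1.32e-10) came next. Unc93b1 lay between 8.33 and 32.3 CPM (median 22.3), and 8 of 9 retinas exceeded all PBS retinas (1.74, FDR = 1.18e-11). Smaller differences were found for Tlr7 (1.34, FDR = 3.38e-08), Tlr9 (1.32, FDR = 4.00e-08), Tlr4 (1.14, FDR = 5.58e-06) and Tlr2 (1.03, FDR = 7.81e-06). Tlr3 was least changed, at 9.58 to 12.2 CPM (median 10.8) and a log2 difference of 0.27 (SE 0.09, FDR = 0.0151). For every member the IL1A and PBS ranges overlapped, while 0.102% of all genes tested lay wholly higher after IL1A. With mouse as a fixed factor over the 7 pairs of eyes 8 members were called, without Tlr2 (0.87, FDR = 0.0646) and Tlr3 (0.24, FDR = 0.200). In the pathway lists 26 of 43 genes rose and 1 fell, led by Cd300lf (2.33, FDR = 2.25e-12), Irak4 (0.84, FDR = 2.10e-10) and the transcription factor Irf5 (1.04, FDR = 6.88e-10). Microglial markers summed to 130 to 242 CPM, neutrophil markers to 29.3 to 155 CPM and monocyte markers to 13.8 to 64.9 CPM, and their part was not tested.

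TNF alone at day 2 changed far fewer genes: 0.547% were called, 0.517% higher and 0.0307% lower. Of the 10 members 3 were called, the endosomal receptors Tlr7 and Tlr9 and the carrier Unc93b1, all higher. Tlr7 lay between 1.04 and 5.33 CPM (median 3.45), with 5 of 8 TNF retinas above the PBS range and a log2 difference of 1.02 (SE 0.20, FDR = 0.00476). For Tlr9 the range was 0.696 to 2.53 CPM (median 2.18), again with 5 of 8 above all PBS retinas (0.99, SE 0.20, FDR = 0.00515). No member lay wholly above PBS, and neither did any other gene tested (0%). Unc93b1 ran from 3.35 to 17.9 CPM (median 14.9), with 5 of 8 above and 1 of 8 below every PBS retina (0.89, SE 0.21, FDR = 0.0184). Tlr8 had a larger log2 difference, 1.52, but an SE of 0.46 and an FDR of 0.149. Not called either were Tlr1 (1.04, SE 0.31, FDR = 0.133), Tlr13 (0.83, SE 0.27, FDR = 0.238) and Tlr6 (0.70, SE 0.35, FDR = 0.654). In limma 7 of 10 members, surface receptors among them, had an unadjusted p under 0.05. The lipoprotein receptor Tlr2 (0.33, FDR = 0.784), Tlr4 (0.26, FDR = 0.875) and Tlr3 (0.00, FDR = 0.999) were not called.

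In mouse 60584 the direction was the opposite. There the eye labelled TNF was below the eye labelled PBS for Unc93b1 (3.35 and 10.8 CPM), Tlr7 (1.04 and 2.25 CPM), Tlr9 (0.696 and 1.69 CPM) and Tlr8 (0 and 0.585 CPM). In the other 7 mice the TNF eye was the higher for these 4 genes. Its microglial marker sums were 69.0 CPM in the TNF eye and 118 CPM in the PBS eye, and its monocyte sums 0.127 and 19.98 CPM. Whether the labels of these eyes were exchanged was not tested, and they were used as given. Without mouse 60584, 6 members were called, adding Tlr8 (2.38), Tlr1 (1.41) and Tlr13 (1.07). The call also hung on other mice: it was 0 members without mouse 59833, 60213 or 60585, and 0 with mouse as a fixed factor over the 8 pairs of eyes, where the log2 differences were 1.24 for Tlr7, 1.12 for Tlr9 and 1.10 for Unc93b1. Of the pathway lists 2 of 43 genes rose, Ctss, a cathepsin of endosomes (0.87, FDR = 0.0110), and Irf5 (0.58, FDR = 0.0216). Over the 8 TNF retinas the sums were 69.0 to 184 CPM for microglia, 0.316 to 16.7 CPM for neutrophils and 0.127 to 53.3 CPM for monocytes, and their part was not tested.

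Set against single cytokines, IL1A+TNF retinas had 2 of 10 members above those of IL1A alone, where 10.1% of genes were called, 5.36% higher and 4.74% lower. These were Tlr3 (0.38, SE 0.10, FDR = 0.00817) and Tlr7 (0.65, SE 0.19, FDR = 0.019996), and both ranges overlapped those of IL1A. Not called but above their SE were Tlr8 (0.62, SE 0.36, FDR = 0.295), Tlr13 (0.55, SE 0.22, FDR = 0.101), Tlr4 (0.45, SE 0.21, FDR = 0.161) and Unc93b1 (0.39, SE 0.18, FDR = 0.177). In limma 5 of 10 members had an unadjusted p under 0.05. The differences of Tlr6 (0.03), Tlr9 (0.07), Tlr1 (0.15) and Tlr2 (0.18) were under their SE. Against TNF alone 9 of 10 members were higher, with 39.1% of genes called, 20% higher and 19.1% lower, the exception being Tlr9 (0.40, SE 0.22, FDR = 0.138). Tlr13 (1.74, FDR = 1.33e-06), Tlr8 (1.64, FDR = 0.00280) and Tlr6 (1.54, FDR = 0.000477) differed most. The other 6 differed by 0.65 for Tlr3, 0.88 for Tlr2, 0.97 for Tlr7, 1.24 for Unc93b1, 1.30 for Tlr1 and 1.33 for Tlr4. The pathway lists had 8 genes higher and 1 lower against IL1A, led by Tnfaip3 (-0.65, FDR = 0.000219) and the interferon regulatory factors Irf8 (1.36, FDR = 0.000222) and Irf7 (1.63, FDR = 0.000520). Against TNF 24 were higher and 3 lower, led by Tnfaip3 (-1.17, FDR = 2.66e-10), Cd300lf (2.43, FDR = 1.59e-08) and Myd88 (1.26, FDR = 4.27e-08).

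Whether the 2 cytokines added up was tested as the IL1A+TNF difference minus the sum of the single differences on the log2 scale. No member was called in limma or edgeR, while 3.49% of all genes were (1.73% higher and 1.76% lower), 3 members had an unadjusted p under 0.05, and DESeq2 called 2. Tlr9 came nearest, at -0.92 (SE 0.28, FDR = 0.0507), with group medians of 0.826 CPM in PBS, 2.18 in TNF, 2.13 in IL1A and 2.57 in IL1A+TNF retinas. Of the pathway lists Myd88 (0.72, FDR = 0.0448) and its bridging adaptor Tirap (0.56, FDR = 0.0365) were above the sum and Tnfaip3 (-0.63, FDR = 0.0174) below it. All these comparisons share the same 31 PBS retinas or the same cytokine groups.

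**Figure D2:**
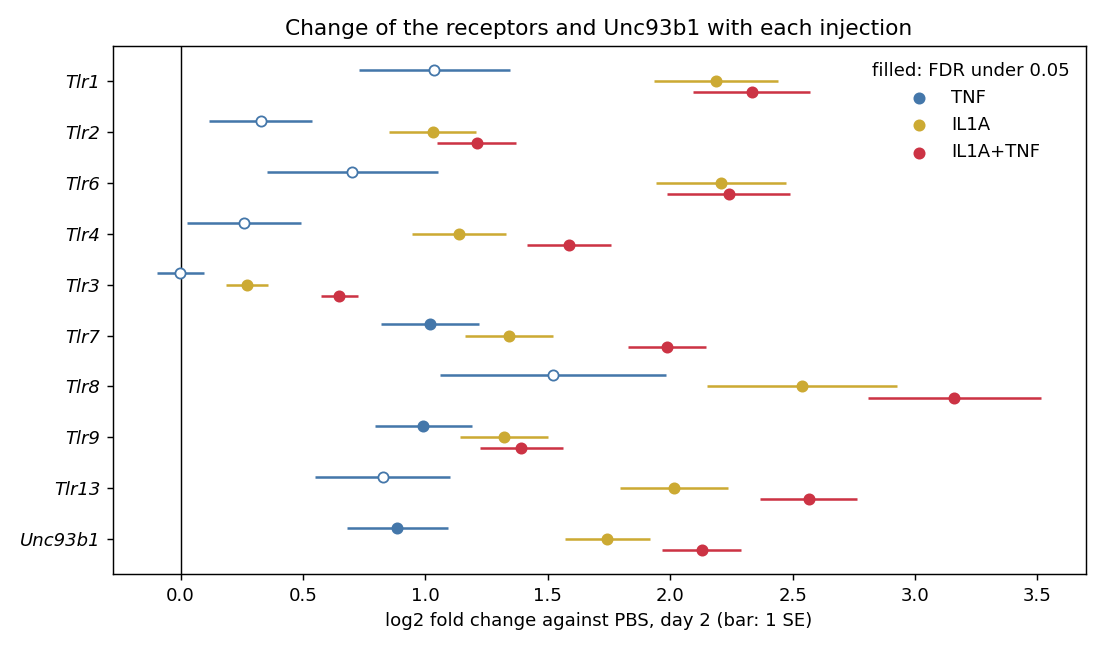
Log2 difference from PBS retinas at day 2 for each member after TNF, IL1A and IL1A+TNF, with bars of 1 SE, filled points for FDR under 0.05 and open points otherwise. TNF differences run from 0.00 for Tlr3 to 1.52 for Tlr8, and the IL1A+TNF differences from 0.65 to 3.16 in the same genes.

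Females and males were compared at day 2 since Tlr7, Tlr8 and Tlr13 are on the X chromosome and Tlr7 is known to escape X inactivation in some immune cells. No member was called in limma, edgeR or DESeq2, where limma called 0.363% of all genes, and 1 member had an unadjusted p under 0.05. This was Tlr4, which was 0.32 higher in females on the log2 scale (SE 0.14, FDR = 0.422). The X-linked members differed by 0.02 (Tlr7, SE 0.13), 0.10 (Tlr8, SE 0.27) and 0.31 (Tlr13, SE 0.16). None of 43 pathway genes was called, and the smallest FDR was that of Cd300lf (0.55, FDR = 0.137).

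At days 14 and 35 only TNF and PBS were given. Tlr1, Tlr6 and Tlr8 were too low to pass the filter, which left 7 members, and none was called at either day by limma, edgeR or DESeq2. Over all genes 0% were called. At day 14 no member had an unadjusted p under 0.05. The smallest FDR there, 0.934, was shared by Tlr3 (0.16, SE 0.12), Tlr4, Tlr7, Tlr13 and Unc93b1. Tlr13, named after its values were seen, had the largest difference (0.52, SE 0.25) and lay between 0.534 and 0.864 CPM (median 0.730) in PBS retinas and between 0.599 and 1.83 CPM (median 1.00) in TNF retinas. At day 35 Tlr2 was the 1 member with an unadjusted p under 0.05. It ran from 0.309 to 0.484 CPM (median 0.368) in PBS retinas and from 0.314 to 0.881 CPM (median 0.697) in TNF retinas, and was higher in the TNF eye of 6 of 6 mice, with a log2 difference of 0.73 (SE 0.22) that did not pass adjustment (FDR = 0.876). The TNF difference itself was not called as changed between day 2 and day 14 or day 35 for any member (FDR of 0.999 or above), with 1 member, Tlr9, at an unadjusted p under 0.05 at day 14 (-0.96, SE 0.40). No pathway gene was called in these 4 comparisons.

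PBS retinas had lower levels of most members at the later days. Over all genes 18.6% were called at day 14 (8.4% higher and 10.2% lower) and 32.7% at day 35 (15.4% higher and 17.4% lower). At day 14, 8 of 10 members were below day 2, Tlr3 (-0.21, FDR = 0.153) and Tlr9 (-0.26, FDR = 0.543) being the others, and at day 35 all 10 were. Of these, Tlr1, Tlr6 and Tlr8 did not pass the filter in the fits of day 14 or day 35 alone. They passed here through the day 2 retinas, where they were higher, so their calls describe levels and are no independent support for a fall. Tlr8 fell furthest. It was at 0.100 to 1.35 CPM at day 2, at 0 to 0.138 CPM at day 14 (-2.37, FDR = 0.00196) and at 0 to 0.0873 CPM at day 35, with no count in 4 of 6 retinas (-3.96, FDR = 4.94e-06). The fitted folds of genes as low as Tlr8, Tlr1 and Tlr6 depend on the prior count. Their highest counts in a PBS retina at day 35 were 3, 6 and 5. Unc93b1 went from a median of 5.99 CPM at day 2 to 3.17 CPM at day 14 (range 2.44 to 4.13, log2 difference -0.99, FDR = 0.00163) and 1.74 CPM at day 35 (range 1.28 to 2.55, -1.83, FDR = 4.02e-06).

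Of the surface receptors, Tlr2 went from a median of 2.89 CPM to 0.644 CPM (0.466 to 1.54, -1.82, FDR = 7.85e-05) and 0.368 CPM (-2.88, FDR = 1.98e-06). Tlr4 stood at a median of 1.34 CPM at day 14 (-1.07, FDR = 0.00471) and 0.761 CPM at day 35 (-1.69, FDR = 9.98e-05). The partners Tlr1 (-1.6, FDR = 0.0337) and Tlr6 (-2.41, FDR = 0.00103) were lower at day 14, and lower again against day 2 at day 35 (-3.23, FDR = 0.00132, and -2.80, FDR = 0.000224). Among endosomal receptors Tlr7 differed by -1.44 (FDR = 0.000349) and -2.16 (FDR = 6.22e-06) and Tlr13 by -1.89 (FDR = 0.00116) and -2.69 (FDR = 0.000109). Tlr9 was called at day 35 (-1.35, FDR = 0.00158). Tlr3 fell least, from a median of 9.10 CPM to 5.67 CPM at day 35 (-0.65, FDR = 2.75e-05). No day 35 retina reached the day 2 range for Tlr2, Tlr8, Tlr13 and Unc93b1, nor did a day 14 retina for Tlr13, while 3.38% of all genes tested lay wholly lower at day 35 and 0.676% at day 14.

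**Figure D3:**
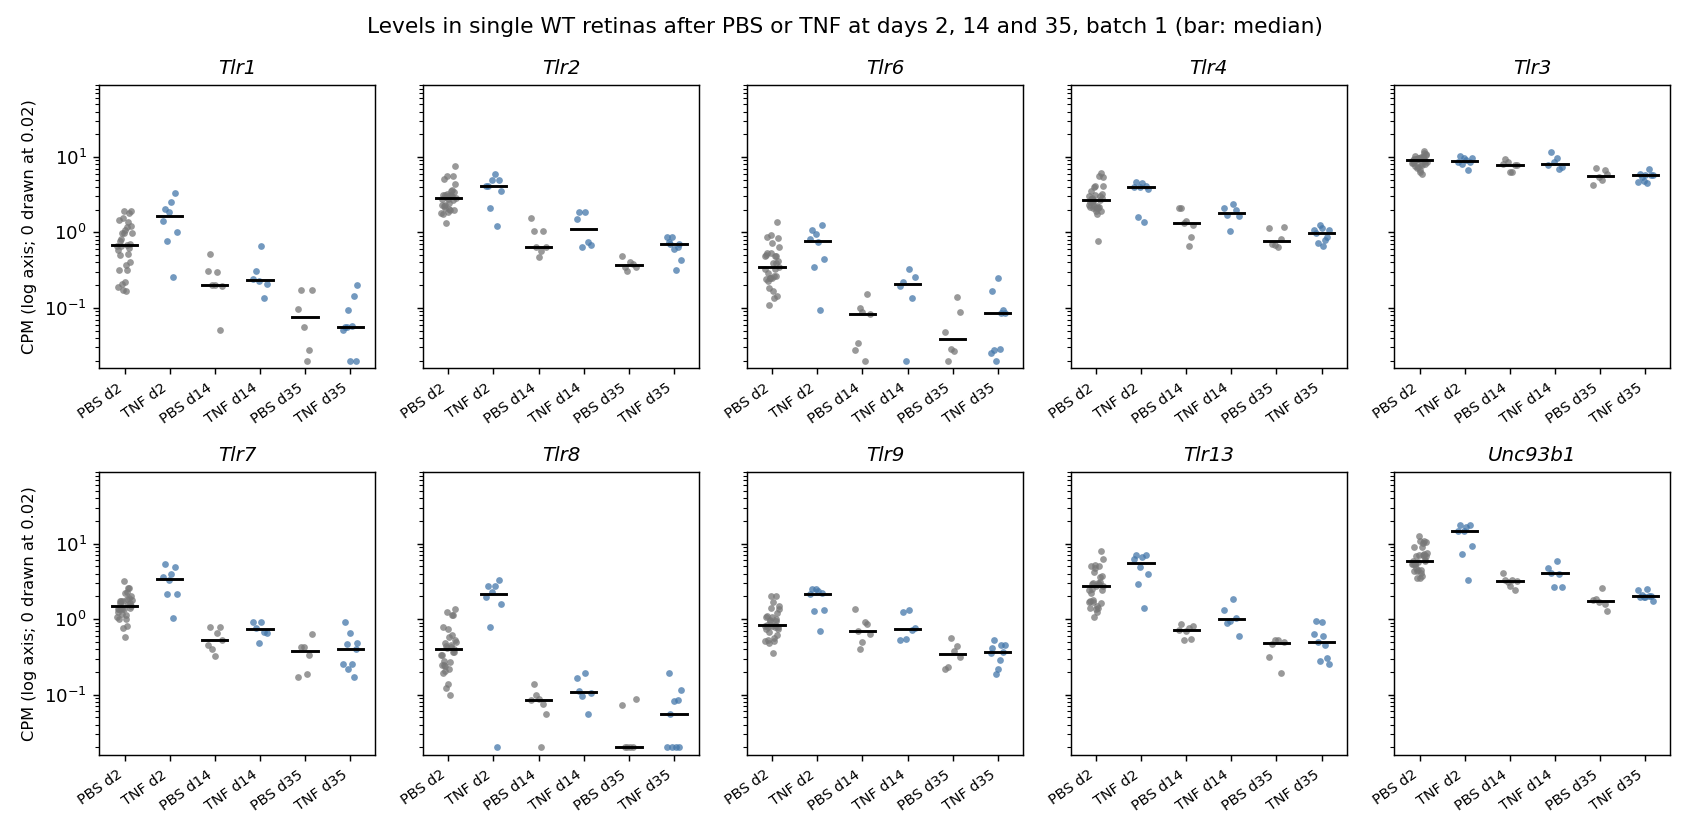
Level of each member in WT PBS and TNF retinas of the first batch at days 2, 14 and 35, in TMM-scaled CPM on a log axis, with 1 point per retina, a bar at the group median and a level of 0 drawn at the foot of the axis. PBS retinas at day 35 lie below all day 2 PBS retinas for Tlr2, Tlr8, Tlr13 and Unc93b1.

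Of the 31 PBS retinas at day 2, 8 were fellow eyes of TNF retinas. In a comparison added after seeing the data and limited to PBS retinas with a TNF fellow eye, 5 members stayed called at day 14 (Tlr2, Tlr4, Tlr7, Tlr13 and Unc93b1) and all 10 at day 35. The limit given above for Tlr1, Tlr6 and Tlr8 holds here too. All 8 microglial markers also fell at both days, to sums of 52.4 to 64.9 CPM at day 14 and 39.5 to 49.98 CPM at day 35, neutrophil sums fell to at most 0.728 and 0.242 CPM with Ly6g at 0, and monocyte sums were at most 1.401 and 0.827 CPM. Their part in the result was not tested, and the days also differ by mice. Of the pathway lists 3 genes rose and 20 fell at day 14, led by Cd180, a surface relative of Tlr4 (-1.55, FDR = 3.82e-06), its partner Ly86 (-1.16, FDR = 1.13e-05) and Irak4 (-0.70, FDR = 6.44e-05). At day 35, 7 rose and 23 fell, led by Tnfaip3 (0.79, FDR = 8.25e-09), Cd180 (-2.56, FDR = 1.99e-08) and Ly86 (-1.66, FDR = 9.38e-08).

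The second batch repeated IL1A+TNF in WT mice. In batch 2 all 10 members lay wholly higher in the 6 treated retinas than in the 5 PBS retinas, as did 12% of all genes tested. Unc93b1 was at 5.56, 6.71, 6.86, 7.26 and 8.68 CPM in PBS retinas and at 32.9 to 56.7 CPM (median 35.0) in treated ones. With both batches in a fit, the WT difference was called for all 10 members (54.8% of genes called, 27.8% higher and 27% lower), from 0.61 for Tlr3 (FDR = 1.80e-10) to 3.29 for Tlr8 (FDR = 4.66e-17). The others were 1.35 for Tlr2, 1.59 for Tlr9, 1.61 for Tlr4, 2.07 for Tlr7, 2.20 for Unc93b1, 2.42 for Tlr1, 2.47 for Tlr6 and 2.66 for Tlr13. In the pathway lists 31 of 44 genes rose and 3 fell, led by Irf5 (1.39, FDR = 1.50e-20), Tnfaip3 (-1.19, FDR = 3.93e-20) and Ctss (1.78, FDR = 1.55e-19).

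The Sarm1KO mice address the part of Sarm1 after the combined cytokines. Sarm1 is a NADase that drives axon degeneration and carries a TIR domain, as the receptors do. In eyes given PBS, no member was called between Sarm1KO and WT retinas in limma, edgeR or DESeq2, and 1 had an unadjusted p under 0.05. Of all genes limma called 0.0397%, 0.00496% higher and 0.0347% lower. Each Sarm1KO PBS retina was the fellow eye of an IL1A+TNF retina, so these are not eyes of untreated mice. The smallest FDR of a member was 0.978, for Tlr2 (0.44, SE 0.24) and Tlr3 (0.25, SE 0.12). Without mice 61561 and 61564 the Tlr2 difference was -0.03. Of the pathway lists Sarm1 was lower (-1.41, FDR = 2.25e-24) and no other was called.

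In Sarm1KO mice IL1A+TNF raised 9 of 10 members (43.6% of genes called, 21.3% higher). Without mice 61924 and 61926 the genes called went from 8785 to 1031. Tlr13 (2.52, FDR = 1.57e-07), Tlr6 (2.41, FDR = 7.95e-06), Tlr8 (2.27, FDR = 8.47e-05) and Tlr1 (1.77, FDR = 1.69e-05) changed most. Unc93b1 went from 5.22 to 9.95 CPM (median 6.59) in PBS retinas to 13.3 to 29.8 CPM (median 24.4), with no overlap, where 3.04% of all genes tested lay wholly higher (1.71, SE 0.24, FDR = 8.15e-08). Tlr7 did not overlap either, at 1.31 to 2.32 CPM and 3.29 to 6.49 CPM (1.28, FDR = 9.68e-06). Tlr1 and Tlr8 were also without overlap. Tlr4 (1.44, FDR = 6.95e-05), Tlr9 (0.78, FDR = 0.0122) and Tlr2 (0.72, FDR = 0.0136) overlapped, as did Tlr13 and Tlr6. For Tlr2, Tlr4 and Tlr6 the treated eye was higher in 5 of 6 mice, the exception each time being mouse 61561. Tlr3 was at 7.91 to 16.8 CPM (median 11.2) and 9.24 to 17.8 CPM (median 12.2), higher in the treated eye of 3 of 6 mice, and was not called (0.10, SE 0.13, FDR = 0.551).

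These calls leaned on a few retinas. Tlr4 was at 34.5 and 30.9 CPM in the IL1A+TNF retinas of mice 61924 and 61926 and between 5.08 and 9.96 CPM in the other 4. In the same order, Tlr13 was at 48.6 and 42.3 CPM and between 9.18 and 17.8 CPM. Tlr6 was at 4.82 and 5.04 CPM and between 0.850 and 2.63 CPM. Without those mice Tlr4 (0.62, FDR = 0.197), Tlr2 (0.30, FDR = 0.585) and Tlr9 (0.84, FDR = 0.112) were no longer called. Without mice 61561 and 61564, Tlr3 was called (0.41, FDR = 0.0159). With mouse as a fixed factor over the 6 pairs of eyes no gene passed, and the FDR of Unc93b1 was 0.133 at a log2 difference of 1.68. In the pathway lists 28 of 44 genes rose and 3 fell in Sarm1KO mice, led by Cd300lf (2.84, FDR = 5.74e-08), Irf5 (1.28, FDR = 7.88e-08) and the inhibitory kinase Irak3 (1.601, FDR = 6.63e-07).

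After IL1A+TNF, Sarm1KO retinas had 3 of 10 members below WT, all of the endosomal system, where 14.9% of genes were called, 4.03% higher and 10.9% lower. That share rests on few mice and on the tool. The 3000 genes called became 270 without mouse 61924, 386 without 61926, 161 without both, 5184 without mice 61561 and 61564, 113 in batch 2 alone, 1595 in DESeq2 (695 higher and 900 lower) and 1195 in edgeR (656 higher and 539 lower). Tlr7 was at 6.27 to 9.63 CPM (median 8.09) in the 6 WT retinas of batch 2 and at 3.29 to 6.49 CPM (median 4.01) in the 6 Sarm1KO retinas. The highest Sarm1KO retina, of mouse 62221, reached the lowest WT retina, and the log2 difference was -0.89 (SE 0.19, FDR = 0.00216). Tlr9 ran from 2.94 to 5.75 CPM (median 3.77) in WT and from 1.28 to 2.63 CPM (median 1.5) in Sarm1KO retinas. Its groups did not overlap, where 0.69% of all genes tested lay wholly lower in Sarm1KO (-1.07, SE 0.23, FDR = 0.00183). Unc93b1 was at 32.9 to 56.7 CPM in WT and at 13.3 to 29.8 CPM in Sarm1KO retinas, also without overlap (-0.65, SE 0.19, FDR = 0.0135). These WT ranges are those of batch 2, while the fit also used the 10 WT IL1A+TNF retinas of batch 1. Their ranges overlapped those of Sarm1KO retinas for all 3, at 3.26 to 9.19 CPM (Tlr7), 1.65 to 3.155 CPM (Tlr9) and 21.2 to 35.6 CPM (Unc93b1). The remaining members were not called, among them Tlr8 (-0.86, SE 0.36, FDR = 0.0990), Tlr3 (-0.25, SE 0.12, FDR = 0.154), Tlr13 (-0.03, SE 0.27, FDR = 0.965) and Tlr4 (0.01, SE 0.26, FDR = 0.983). The last 2 differences include mice 61924 and 61926, at 48.6 and 42.3 CPM of Tlr13 and 34.5 and 30.95 CPM of Tlr4. The other Sarm1KO retinas were at 9.18 to 17.8 CPM of Tlr13, against 14.98 to 41.9 CPM in WT batch 2. For Tlr4 they were at 5.08 to 9.96 CPM, against 9.94 to 21.01 CPM.

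In batch 2 alone the 3 were still called (Tlr7 -0.92, FDR = 0.00970; Tlr9 -1.18, FDR = 0.0245; Unc93b1 -0.69, FDR = 0.0456). Tlr7 and Tlr9 also stayed called without mice 61924 and 61926 (-0.87, FDR = 0.0326, and -1.0, FDR = 0.0413) and without mice 61561 and 61564 (-0.86, FDR = 0.00189, and -1.08, FDR = 0.000771). Unc93b1 lost its call in both cases (-0.77, FDR = 0.0670, and -0.52, FDR = 0.0511), and also in edgeR (FDR = 0.122) and DESeq2 (FDR = 0.0829). Microglial markers were lower in Sarm1KO as well, 5 of 8 being called, with sums of 161 to 318 CPM against 249.2 to 360.0 CPM in WT, while neutrophil sums were 46.5 to 318 and 35.8 to 286 CPM and none of 4 tested was called. Ganglion cell markers summed to 57.0 to 359 CPM and 195 to 323 CPM. Their part was not tested. Of the pathway lists 2 genes were higher and 5 lower, led by Sarm1 (-1.38, FDR = 6.92e-24), Cd180 (-0.81, FDR = 0.000956) and the endoplasmic reticulum chaperone Hsp90b1, which folds Toll-like receptors (0.34, FDR = 0.00725).

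The test of whether the IL1A+TNF response itself differed by genotype called 2 members, against 8.94% of all genes (7.39% lower). The 1801 genes called became 0 without mouse 61924, 15 without 61926, 0 without both, 2818 without 61561, 4025 without mice 61561 and 61564, 0 in batch 2 alone, 430 in DESeq2 and 181 in edgeR (104 higher and 77 lower). Tlr3 responded less in Sarm1KO than in WT mice by -0.50 (SE 0.15, FDR = 0.0253) and Tlr7 by -0.79 (SE 0.27, FDR = 0.0477). In WT batch 2 Tlr3 was at 9.15, 9.93, 10.4, 10.6 and 11.7 CPM in PBS retinas and at 12.2 to 17.6 CPM (median 14.6) after IL1A+TNF, and higher in the treated eye of 5 of 5 mice. In Sarm1KO mice 61561, 61564 and 62221 it fell instead, from 13.8 to 10.9, from 16.8 to 10.99 and from 11.97 to 9.24 CPM. Neither call held in batch 2 alone (FDR of 0.812 for Tlr3 and Tlr7), in edgeR, without mice 61924 and 61926 (Tlr3 -0.66, FDR = 0.161, and Tlr7 -0.96, FDR = 0.274), or without mice 61561 and 61564 (Tlr3 -0.20, FDR = 0.451, and Tlr7 -0.55, FDR = 0.244). Tlr9 had a difference of -0.80 (SE 0.30, FDR = 0.0818). No pathway gene was called, the smallest FDR being that of Cd36 (-0.63, FDR = 0.0907).

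**Figure D4:**
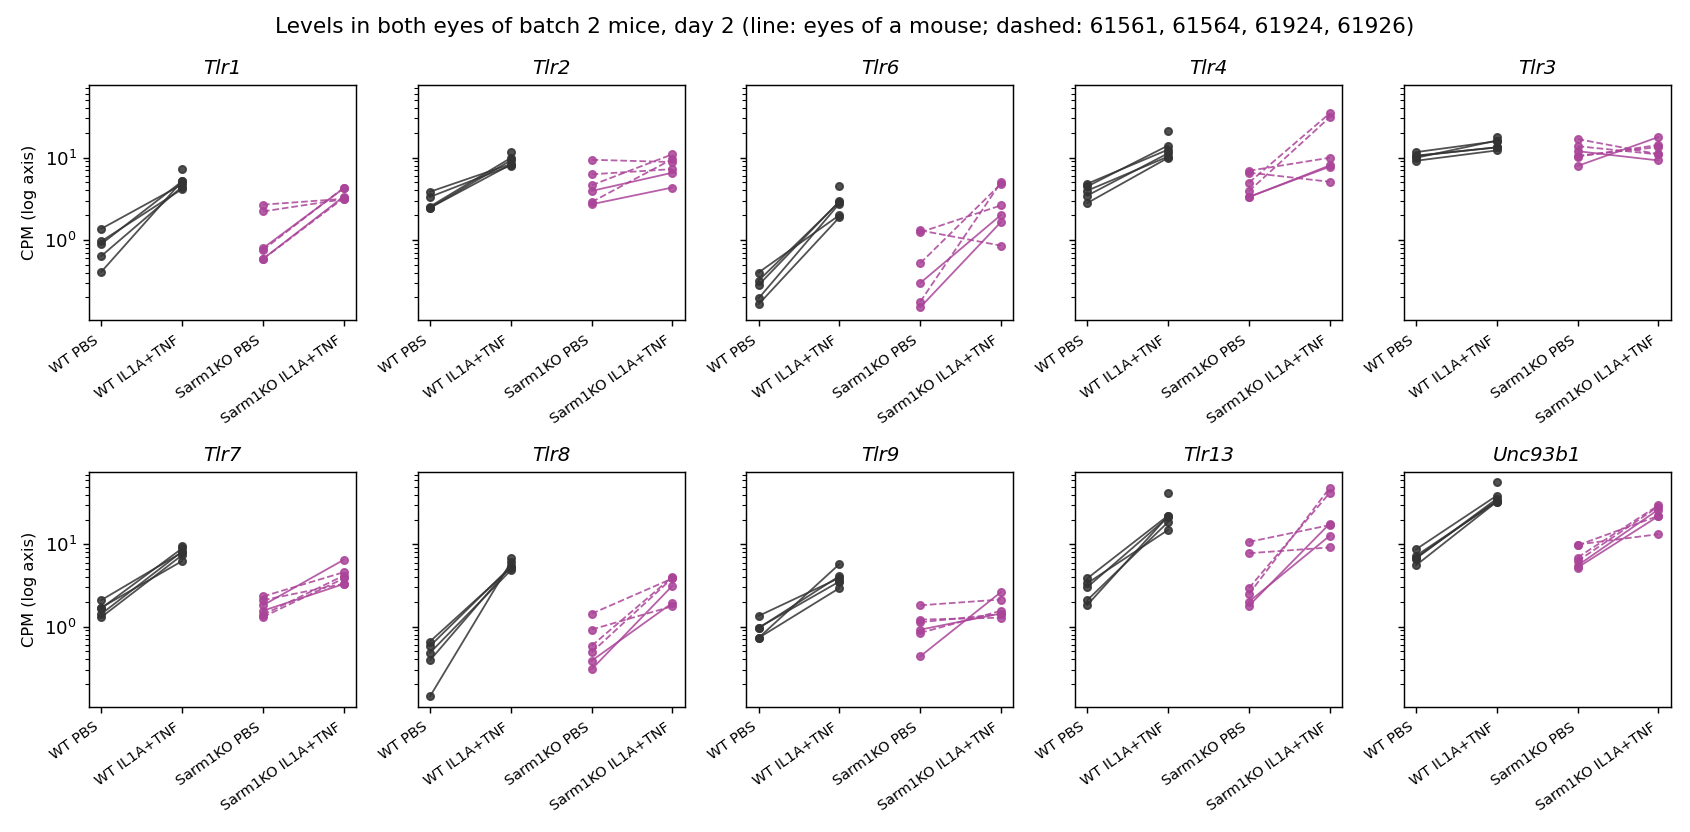
Level of each member in the PBS and IL1A+TNF eyes of WT and Sarm1KO mice of batch 2, in TMM-scaled CPM on a log axis, with a line joining the eyes of a mouse and dashed lines for mice 61561, 61564, 61924 and 61926. Mouse 61719 gave no PBS retina. Treated Sarm1KO retinas reach 2.63 CPM of Tlr9 at most, and treated WT retinas 2.94 CPM at least.

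Genes whose levels ran most like those of the members were sought over the 58 WT retinas of the first batch at day 2, which share the treatments and so the rise with them. For Unc93b1 they were Laptm5 (Pearson r = 0.986), Mpeg1 (0.983) and Myo1f (0.982), and for Tlr13 Lcp1 (0.980), Itgb2 (0.979) and Plcg2 (0.975). Tlr8 ran with Ms4a6c (0.969), Lyz2 (0.967) and Ctss (0.964), Tlr7 with Mpeg1 (0.961), Ctss (0.955) and C1qb (0.954), and Tlr9 less closely with Cybb (0.905), Ms4a6c (0.903) and Apoc2 (0.899). The surface receptors ran with Was, Pirb and Arhgap30 (Tlr1, 0.953 to 0.956), with Cyth4, Arhgap45 and Syk (Tlr6, 0.946 to 0.948), with Tnfaip2, Ctsc and C5ar1 (Tlr2, 0.914 to 0.923) and with Il13ra1, Stat6 and Dab2 (Tlr4, 0.936 to 0.942). Tlr3 ran with Trim56 (0.924), Zc3hav1 (0.923) and Nmi (0.914).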

How the data were processed

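RNA of whole mouse retinas was sequenced. The authors aligned reads to mm10 with STAR 2.7.9a and deposited raw whole-number counts per gene from featureCounts (Subread 2.0.1). The annotation and strand setting are not given in the sources used here. Genotype, treatment, day, sex, batch and mouse came from the labels. The extract protocol states harvest at 2 days for all, but the labels' days were used.

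Genes passed filterByExpr (minimum count 10, total 15, proportion 0.7). Counts were TMM-scaled (edgeR 4.0.16) and tested with voom and duplicateCorrelation, mouse as block, in 2 rounds (limma 3.58.1, R 4.3.3). PBS retinas of different days were fitted without a block, so both eyes of 1 day 14 mouse entered as independent. FDR is Benjamini-Hochberg over all genes tested, called under 0.05. The scripts were tested on simulated data. edgeR quasi-likelihood and DESeq2 1.42.0 fits were alternatives. Fellow eyes come from the same mouse, which is the source of the pairing.

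A member's difference was named where called, otherwise the smallest FDR, and listed genes by the 3 smallest FDRs. Genes outside this rule were named after their values were seen. Members and lists were chosen with earlier results of these data known. P-values measure spread between retinas, and fellow eyes share a mouse. At this depth a count of 10 is under 1 CPM.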

Additional observations from a re-analysis of the deposited data

Results flagged for a closer look

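The 10 members were tested for a lone extreme value in each of 11 groups of 5 to 10 retinas. Of these 110 tests 6 found one, and chance flags about 1 in 20. In batch 2 the IL1A+TNF retina of WT mouse 61719 stood above its group for Tlr1 (7.36 CPM), Tlr4 (21.01 CPM), Tlr13 (41.9 CPM) and Unc93b1 (56.7 CPM). In the first batch the IL1A+TNF retina of mouse 60212 stood apart for Tlr2 (11.4 CPM), and the day 14 TNF retina of mouse 59829 for Tlr1 (0.656 CPM).

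The response to IL1A+TNF differed between Sarm1KO and WT mice for Tlr3 (-0.50 on the log2 scale) and Tlr7 (-0.79) in the limma test of genotype by treatment, with the exceptions given below.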

How the results depend on the processing

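Member calls for IL1A+TNF, IL1A, IL1A+TNF against TNF and PBS at day 35 stayed within 1.5 times under each alternative run. TNF at day 2 (3 members) gave 5 in edgeR, 0 with mouse as a fixed factor, and 0 to 6 leaving out each mouse. Non-additivity (0) gave 2 in DESeq2 and 1 without the sex term. PBS at day 14 (8) gave 5 with TNF fellow eyes only, chosen after seeing the data. IL1A+TNF in Sarm1KO (9) gave 0 with mouse as a fixed factor and 8 to 9 leaving out a mouse. Genotype by treatment (2) gave 0 in edgeR, 1 in DESeq2, 1 without the filter, 0 in batch 2 alone, and, in fits chosen after seeing the data, 0 without mice 61924 and 61926 and 0 without mice 61561 and 61564. It gave 0 to 2 leaving out each mouse, with 0 without 61561, 61564, 61924 or 61926 and 1 without 61722, 61765, 61927 or 62224. The 0 to 6 for TNF were 0 without 59833, 60213 or 60585 and 6 without 60584. The Tlr2 difference between genotypes in PBS retinas turned to -0.0333 without mice 61561 and 61564. The fits with mouse as a fixed replicate block used paired eyes only (16 of 58 retinas for TNF, 14 of 58 for IL1A, 12 of 81 for Sarm1KO), so the model and the retinas changed together. They left 8 of 10 members for IL1A and all 10 for IL1A+TNF. Without any replicate block each count of members called was the same. Over the members named in each comparison 964 alternative values kept direction and call, 64 lost the call, 2 gained it and 1 reversed. The cause of these changes was not tested.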
